A study of Mus musculus with 2 samples.

Results

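The transcripts described here belong to the pathway that leads from the insulin and insulin-like growth factor (IGF) receptors to the kinase mTOR. The 9 genes were chosen by name from the 14398 genes of the deposited expression table, and all 9 were present: the receptors Igf1r and Insr, the adaptors Irs1 and Irs2, the lipid kinase Pik3ca, and the protein kinases Akt1, Akt2, Sgk1 and Mtor. RNA was sequenced from 1 culture of 46C mouse embryonic stem cells that overexpressed ID2 (labelled PB-ID2) and from 1 control culture with the empty vector (labelled PB). ID2 is a helix-loop-helix protein that binds E proteins and keeps them from DNA. Both cultures were at passages 21 to 24 and grew on gelatin in serum medium with LIF. With 1 library per group there was no replicate, no error and no test, and a difference below is a difference between these libraries. The labels do not say whether either line was 1 clone.

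Insulin and the IGFs bind receptor tyrosine kinases at the cell surface, which phosphorylate IRS adaptors. IRS proteins recruit PI3-kinase, whose lipid product brings AKT to the membrane, where PDK1 and mTOR complex 2 activate it. AKT holds back FOXO transcription factors and the TSC complex, and release of RHEB from TSC switches on mTOR complex 1, the main driver of protein synthesis. In embryonic stem cells PI3-kinase signaling is known to sustain self-renewal and growth. SGK1 is a relative of AKT that mTOR complex 2 also activates and whose gene is switched on quickly by serum and glucocorticoids.

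Values are the authors' normalized values. The ratio of each gene is log2((ID2 + 1)/(control + 1)), so that a positive ratio means a higher value in the ID2 library. A gene was counted in summaries when the mean of its values was at least 50, which held for 12679 genes and for 8 of the 9 members; Irs1 was under this floor. Because ratios of low genes spread more, each member was also placed among the 500 genes nearest to it in mean level, as the percentage of them that had a lower ratio. Id2 itself stood at 26225 in the ID2 library and at 324 in the control library, 80.8-fold apart. All 8 listed embryonic stem cell markers were above the floor, with sums of 127184 in the ID2 library and 103435 in the control library. Their ratios ran from −0.08 (Dppa5a) to 0.85 (Zfp42), and Dppa5a alone was lower in the ID2 library. Their median ratio was 0.34, against −0.0023 over all genes above the floor. Of 8 fibroblast and feeder markers, Col3a1, Postn, Lum and Dcn were not listed, and the 4 that were summed to 1342 in the ID2 library and 2114 in the control library. Col1a1 among them stood at 139 in the ID2 library and 339 in the control library (ratio −1.28), in the same direction as Igf2 below. Of 6 extraembryonic endoderm markers all but Sox17 were listed, with sums of 386 in the ID2 library and 333 in the control library, and ratios from −0.93 (Gata4) to 2.83 (Sox7). Of 5 neural markers all but Pax6 were listed, with sums of 2445 in the ID2 library and 1872 in the control library, and ratios from −0.88 (Nes) to 1.02 (Sox1). Of 5 markers of adipocytes and muscle, the classical insulin target tissues, Slc2a4 alone was listed, at 559 in the ID2 library and 840 in the control library. The part of such cells in the results was not tested.

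Across the pathway members the libraries were close, with the exception of Sgk1. None of the 8 members above the floor reached a 2-fold difference, which 2.53% of all genes above the floor reached as higher and 1.86% as lower in the ID2 library. Sgk1 was the 1 member at least 1.5-fold higher (background 8.0%), and no member was 1.5-fold lower (background 6.59%). The median ratio of the 8 members was 0.10, against −0.0023 over all genes above the floor. The authors' normalized values were whole multiples of 1 step per library. The sorted steps of both libraries were identical, so the steps were not taken as raw read counts. On the whole steps 7 of the 8 members were higher (background 47.2%) and 1, Mtor, was lower (background 51.5%). For 6 of the 9 genes the ratio was under 0.15 in size, a share that was not computed over all genes. The ratios of 8 of the 9 lay between the 5th and 95th percentile of the genes nearest in level. Sgk1 lay above that range. Such a range holds most genes by construction, so this count does not set the members apart from other genes.

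**Figure D1:**
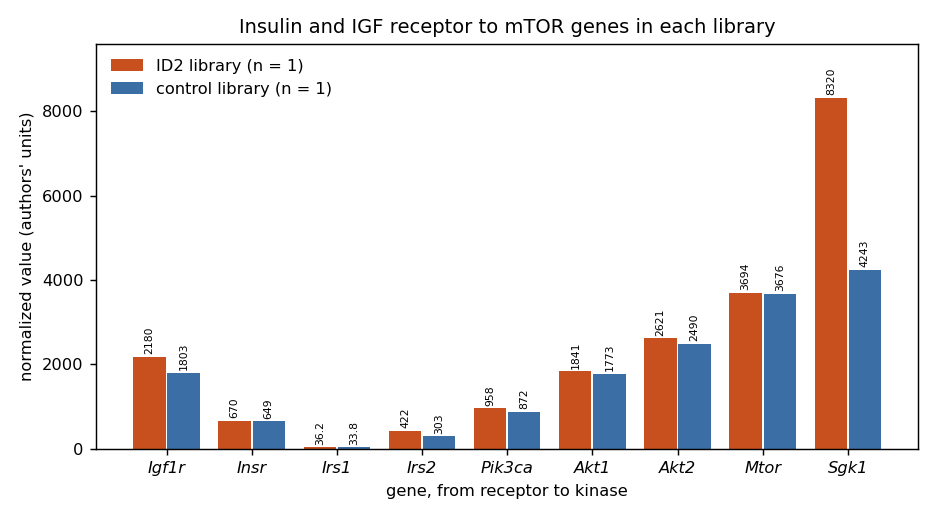
Normalized value of each member (vertical axis, authors' units) in the ID2 library and the control library, 1 library each, with the value printed on each bar. Sgk1 stood at 8320 in the ID2 library and 4243 in the control library, while the bars of Mtor, Akt1, Akt2 and Insr are nearly level.

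**Figure D2:**
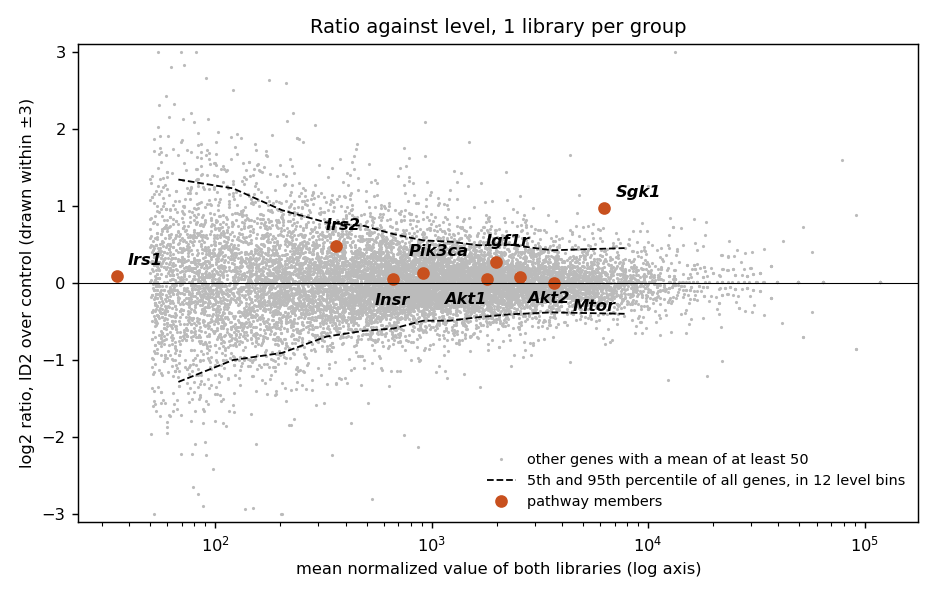
Log2 ratio of ID2 over control against the mean of both libraries (log axis), with the members as large points and dashed lines at the 5th and 95th percentile of all genes with a mean of at least 50. Sgk1, at 0.97, is the 1 member outside the dashed lines, and Irs1, with a mean of 35.0, lies left of the floor.

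The member receptors Igf1r and Insr differed little between the libraries. Igf1r, which encodes the type 1 IGF receptor and binds IGF1 and IGF2, stood at 2180 in the ID2 library and at 1803 in the control library, 1.21-fold higher with a ratio of 0.27. Its ratio was above that of 86.4% of the genes nearest in level, which still lay inside their 5th to 95th percentile range of −0.43 to 0.50. Insr, the insulin receptor, stood at 670 in the ID2 library and at 649 in the control library, with a ratio of 0.05 at percentile 59.0. Levels of different genes were compared only after division by transcript length. Per kb of transcript, Igf1r stood at 191 in the ID2 library and 158 in the control library, and Insr at 71.6 in the ID2 library and 69.4 in the control library. Of the summed level of this pair per kb, Igf1r made up 72.7% in the ID2 library and 69.5% in the control library. Both cultures thus held more Igf1r than Insr transcript on this scale. Igf2r, which clears IGF2 from the surface and does not signal through a tyrosine kinase, stood at 4074 in the ID2 library and 5605 in the control library (ratio −0.46). The Igf2r ratio lay at percentile 1.4 of the genes nearest in level, below their 5th to 95th percentile range. Insrr, the orphan relative of Igf1r and Insr, was not listed in the table.

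The largest difference upstream of the receptors was in a ligand. Igf2, the imprinted fetal growth factor, stood at 32.2 in the ID2 library and at 370 in the control library, 11.5-fold lower with a ratio of −3.48. The authors' deposited table gives Igf2 an adjusted p of 4.95e-04, which rests on 1 library per group. Igf1, Ins1 and Ins2 were not listed and have no level here. Igf2 shares exons in the GENCODE annotation with an antisense gene and a read-through gene, and the libraries do not keep strand. Of the 8 genes for IGF carrier proteins, 4 were above the floor, 3 of them lower and 1 higher in the ID2 library, with a median ratio of −0.51 (−0.85 with no floor). Igfbp4, which holds IGFs away from their receptor, stood at 144 in the ID2 library and 360 in the control library (ratio −1.32), and Igfbp3, the main carrier in serum, at 157 in the ID2 library and 283 in the control library (−0.85). Igfals, which joins IGF and IGFBP3 in a stable complex in blood, stood at 165 in the ID2 library and 41.8 in the control library (1.95). Among the 500 genes nearest in level, the ratios of Igfbp4 and Igfals lay at percentiles 0.6 and 99.6. Igfbp2, the carrier with the highest value and named after its values were seen, stood at 10364 in the ID2 library and 11699 in the control library (−0.17).

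Irs1 and Irs2, the adaptors that couple both receptors to PI3-kinase, differed far more from each other than between libraries. Irs2 stood at 422 in the ID2 library and at 303 in the control library, 1.40-fold higher with a ratio of 0.48 at percentile 87.0 of the genes nearest in level. The 5th to 95th percentile range of those genes was −0.67 to 0.74, so Irs2 lay inside it. Irs1 stood at 36.2 in the ID2 library and at 33.8 in the control library, with a ratio of 0.09 at percentile 52.6. Per kb of transcript, Irs2 stood at 66.7 in the ID2 library and 47.8 in the control library, and Irs1 at 3.96 in the ID2 library and 3.70 in the control library. Irs2 thereby made up 94.4% of the summed level of both genes in the ID2 library and 92.8% in the control library. Both genes have 2 exons and overlap a gene on the opposite strand in the GENCODE annotation, whose reads cannot be told apart from theirs in libraries without strand. Irs3 and Irs4 were not listed. The 5 adaptor genes above the floor split into 3 with a higher and 2 with a lower value in the ID2 library (median ratio 0.27). Shc1, which links receptors to RAS, stood at 4860 in the ID2 library and 3861 in the control library (0.33), and Gab1, a docking protein, at 5475 in the ID2 library and 6685 in the control library (−0.29).

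The promoters of the adaptors and of Sgk1 are shown because they are the 3 members whose start site windows hold the E-box CACGTG, a site class bound by MYC and other helix-loop-helix leucine zipper factors. The windows run from 250 bases before to 50 after the RefSeq start site in GRCm38.p6, read 5′ to 3′ on the gene's strand. The window of Irs1 is chr1:82291390-82291689 on the minus strand, that of Irs2 is chr8:11008880-11009179 on the minus strand, and that of Sgk1 is chr10:21993640-21993939 on the plus strand, 1 of 6 windows listed for that gene. Capitals mark 9 bases that hold the E-box and are the same in the 3 windows.
Irs1: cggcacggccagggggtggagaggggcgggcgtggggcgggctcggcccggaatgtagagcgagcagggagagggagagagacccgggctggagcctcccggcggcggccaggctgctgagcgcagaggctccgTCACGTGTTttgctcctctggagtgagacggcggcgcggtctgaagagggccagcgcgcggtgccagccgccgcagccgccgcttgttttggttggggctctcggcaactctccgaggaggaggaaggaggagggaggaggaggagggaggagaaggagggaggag
Irs2: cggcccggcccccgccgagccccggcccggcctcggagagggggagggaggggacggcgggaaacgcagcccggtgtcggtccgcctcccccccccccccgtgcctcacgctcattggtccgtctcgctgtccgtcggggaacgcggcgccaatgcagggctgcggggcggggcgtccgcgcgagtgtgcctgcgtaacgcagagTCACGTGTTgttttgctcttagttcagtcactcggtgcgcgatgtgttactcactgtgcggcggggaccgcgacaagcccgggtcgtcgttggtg
Sgk1: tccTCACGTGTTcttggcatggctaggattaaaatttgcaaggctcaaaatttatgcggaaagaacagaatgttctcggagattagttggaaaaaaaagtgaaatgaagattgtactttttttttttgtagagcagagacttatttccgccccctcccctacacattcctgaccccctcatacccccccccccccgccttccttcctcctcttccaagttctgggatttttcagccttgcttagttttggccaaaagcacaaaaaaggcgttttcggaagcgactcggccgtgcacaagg

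The capitals, TCACGTGTT, begin 116 bases before the start site in Irs1, 45 bases before it in Irs2 and 247 bases before that of the shown window in Sgk1. The other windows of Sgk1 do not hold TCACGTGTT, and which of its start sites these cells use was not tested. This run of bases was picked after the sequences were seen, and it occurs on either strand in 62 of 32851 windows of all genes (0.189%). The shorter CACGTG was found in 3 of 17 member windows and in 7.15% of all windows. The general E-box CANNTG, which includes CACGTG, was found in 10 of the 17 member windows and in 72.3% of all windows. The FOXO motif GTAAACA was found in 1 window, of Akt1, and in 3.65% of all windows. The STAT motif TTCNNNGAA was found in a window each of Akt2, Mtor and Sgk1 and in 8.30% of all windows. All motifs were searched on both strands, and a match describes letters, not binding. The 3 genes with the shared bases had ratios of 0.97, 0.48 and 0.09. Among 29 other genes above the floor with TCACGTGTT in a window, the median ratio was 0.04, with 16 higher and 13 lower in the ID2 library. The table of promoters held no entry for Insr.

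PI3-kinase transcripts were mostly close between the libraries, except for 1 regulatory subunit. Pik3ca, which encodes the catalytic subunit p110-alpha, stood at 958 in the ID2 library and at 872 in the control library, with a ratio of 0.14 at percentile 69.6 of the genes nearest in level. The other catalytic subunits were lower in the ID2 library. Pik3cb stood at 1150 in the ID2 library and 1294 in the control library (−0.17), and Pik3cd, best known from leukocytes, at 796 in the ID2 library and 971 in the control library (−0.29). Per kb, Pik3ca was the smallest of the 3, at 24.0% of their sum in the ID2 library and 19.8% in the control library. Pik3r2, which encodes the regulatory subunit p85-beta, stood at 2080 in the ID2 library and 1287 in the control library (0.69, 1.62-fold). It made up 88.5% of the summed level per kb of Pik3r1, Pik3r2 and Pik3r3 in the ID2 library and 82.2% in the control library. On whole steps 3 of the 7 listed subunit genes above the floor stood higher in the ID2 library and 4 lower (median ratio −0.11).

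Phosphatases that oppose this step were lower in the ID2 library in 6 of 7 cases on whole steps (background 51.5%), with a median ratio of −0.21. Inpp5d, which encodes the inositol phosphatase SHIP1, had the lowest ratio of the list (−0.48), with 4966 in the ID2 library and 6926 in the control library. Inpp5k (−0.34) and Inpp4a (−0.26) followed. Among the genes nearest in level, Inpp5d lay at percentile 1.8, Inpp5k at 10.4 and Inpp4a at 21.0. Inppl1, named after its values were seen, was nearly level, lower on whole steps and at a ratio of 0.0039 on the normalized values. None of the 7 was 1.5-fold apart. Among 9 feedback inhibitors of the receptors above the floor, 5 were higher and 4 lower (median ratio 0.07, or −0.036 with no floor). Socs1 stood at 124 in the ID2 library and 75.6 in the control library (0.70, percentile 87.2). Socs3 stood at 8957 in the ID2 library and 12735 in the control library (−0.51, percentile 2.2), and Trib2 had a ratio of −0.43 (percentile 23.2).

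Akt1 and Akt2 were nearly level between the libraries. Akt1, the widely expressed form tied to growth, stood at 1841 in the ID2 library and at 1773 in the control library, with a ratio of 0.05 at percentile 58.8 of its neighbours in level. Akt2, the form most tied to insulin-stimulated glucose uptake, stood at 2621 in the ID2 library and at 2490 in the control library, with a ratio of 0.07 at percentile 62.4. Although Akt2 had the larger values, Akt1 was ahead per kb of transcript, with 684 in the ID2 library and 659 in the control library, and Akt2 stood at 577 in the ID2 library and 548 in the control library. Of the summed level of this pair per kb, Akt1 made up 54.3% in the ID2 library and 54.6% in the control library. Pdpk1, which encodes the AKT-activating kinase PDK1, stood at 3324 in the ID2 library and 3021 in the control library (0.14).

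Sgk1 was the member with the largest difference. It stood at 8320 in the ID2 library and at 4243 in the control library, 1.96-fold higher with a ratio of 0.97, just under the 2-fold mark. All 500 genes nearest in level had a lower ratio, and their 5th to 95th percentile range was −0.37 to 0.43. Of the 725 other genes with a mean at least as high, 18 were at least 1.5-fold higher and 3 had a ratio as large as that of Sgk1. Both counts include the overexpressed Id2 itself, with a ratio of 6.33. The authors' deposited table gives Sgk1 a p of 3.58e-04 and an adjusted p of 0.114, from 1 library per group, and an adjusted p of 1 for each of the other 8 members.

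The SGK relatives went different ways. Sgk3, whose product is drawn to endosomes by a lipid made by PI3-kinases, stood at 238 in the ID2 library and at 561 in the control library, 2.36-fold lower with a ratio of −1.23. Sgk2 was under the floor, at 48.2 in the ID2 library and 17.9 in the control library. Per kb of transcript, Sgk1 stood at 3388 in the ID2 library and 1728 in the control library, and Sgk3 at 63.0 in the ID2 library and 149 in the control library. Sgk1 thus made up 97.7% of the summed SGK level in the ID2 library and 91.8% in the control library. Per kb it was also the most abundant of the 9 members in both libraries, followed by Akt1 and Akt2.

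**Figure D3:**
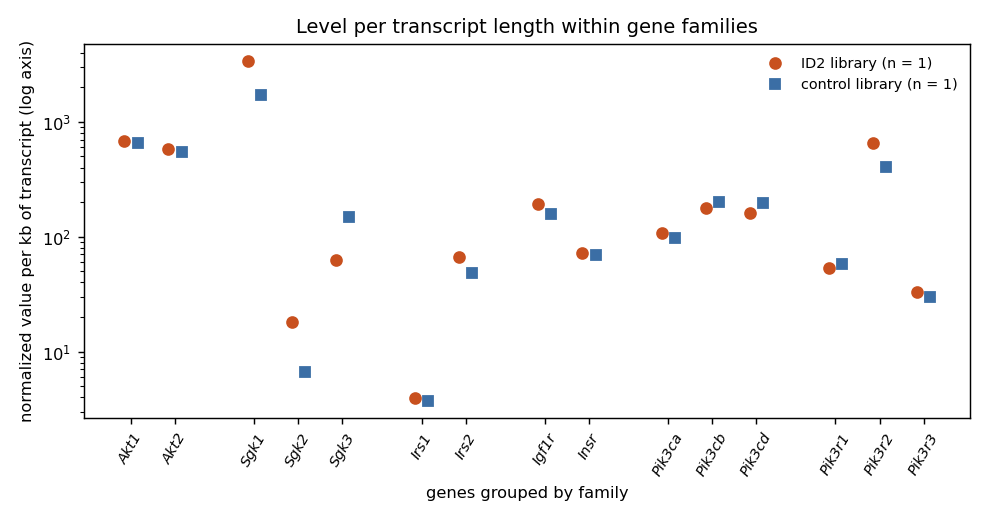
Normalized value per kb of transcript (log axis) for families that hold a member and for the regulatory subunit genes Pik3r1, Pik3r2 and Pik3r3. Circles show the ID2 library and squares the control library, 1 library each. Sgk1 stands above the other SGK genes in both libraries, Irs2 stands far above Irs1, and Sgk3 is the family gene whose ID2 value lies furthest below its control value.

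Mtor, the kinase of both mTOR complexes, stood at 3694 in the ID2 library and at 3676 in the control library. Its ratio of 0.0069 was the smallest of the 9, at percentile 52.4 of the genes nearest in level, and it turned to −0.0070 on whole steps, so that no direction can be given. Subunits that set apart the complexes had ratios in both directions. Rptor, the scaffold of mTOR complex 1, stood at 1891 in the ID2 library and 1624 in the control library (0.22), and Rictor, the scaffold of mTOR complex 2, at 1996 in the ID2 library and 2641 in the control library (−0.40). Prr5 and Prr5l, which encode partners of RICTOR, were higher in the ID2 library. Prr5 stood at 707 in the ID2 library and 434 in the control library (0.70), and Prr5l at 198 in the ID2 library and 95.5 in the control library (1.04). Among the genes nearest in level, Prr5 lay at percentile 95.6 and Prr5l at 93.8, so the larger ratio of Prr5l was the less unusual for its level. Akt1s1, an inhibitory subunit of mTOR complex 1 and AKT substrate also called PRAS40, stood at 1028 in the ID2 library and 701 in the control library (0.55). Of the 12 genes for subunits and assembly factors, 7 were higher and 5 lower on whole steps, with a median ratio of 0.10.

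The list of the TSC complex, which restrains mTOR complex 1, and of RHEB, which activates it, had 6 of 7 genes lower on whole steps (background 51.5%), with a median ratio of −0.22. None of the 7 was 1.5-fold apart. Tsc1 stood at 2271 in the ID2 library and 2653 in the control library (−0.22). Its partner Tsc2 stood at 5195 in the ID2 library and 5400 in the control library (−0.06). Rheb, the GTPase that activates the complex, stood at 1361 in the ID2 library and 1378 in the control library (−0.02). The lowest ratios were those of the RHEB relative Rhebl1 (538 in the ID2 library and 795 in the control library, −0.56), the TSC subunit Tbc1d7 (−0.35) and the stress-induced inhibitor Ddit4 (−0.30). Of the genes named from the lists, Tsc2, Rhebl1, Rptor, Akt1s1, Gab1, Pik3r2, Prr5l, Foxo1, Rps6kb1, Eef2k, Prkab2, Prkag1, Bcl6, Txnip and Inppl1 share exon sequence with at least 1 gene on the opposite strand in the GENCODE annotation, so their values may hold reads of it.

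Genes by which amino acids reach mTOR complex 1 through RAG GTPases were evenly split, 12 higher and 12 lower (median ratio 0.0058). Sesn2, a leucine sensor that is also a stress gene, stood at 4523 in the ID2 library and 2976 in the control library (0.60), and the GTPase gene Rraga at 1758 in the ID2 library and 1157 in the control library (0.60). Flcn, a RAG regulator, stood at 2036 in the ID2 library and 2732 in the control library (−0.42). Rraga has 1 exon. Among coding genes above the floor whose longest exon makes up 80% or more of the transcript, 18.8% were at least 1.5-fold higher. Of the other coding genes, 5.80% were. This class was known from earlier results of these data. In it 7.10% were 2-fold higher and 1.59% were 2-fold lower, beside 1.57% higher and 1.41% lower of the other coding genes. Of the genes named from the lists, Igf2, Socs1, Socs3, Prkaa2, Prkab2 and Cited2 also fall in that class. The part of exon structure in the values of these genes and of Rraga was not tested. None of the 9 members falls in that class, with longest exons of 9.80% (Mtor) to 67.0% (Igf1r) of the transcript.

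Outputs of the pathway showed no common direction. Of 12 genes of mTOR complex 1 outputs, 6 were higher, 5 lower and 1 equal on whole steps (median ratio 0.02). Rps6kb1, which encodes the S6 kinase, stood at 1777 in the ID2 library and 1410 in the control library (0.33), and Eif4ebp1, the translation repressor that mTOR inactivates, at 5744 in the ID2 library and 5633 in the control library (0.03). Pdcd4, a translation inhibitor that S6 kinase marks for degradation, stood at 758 in the ID2 library and 1068 in the control library (−0.49), and Eef2k, the kinase of elongation factor 2, at 880 in the ID2 library and 647 in the control library (0.44). These are transcripts of proteins that the pathway controls by phosphorylation, which RNA sequencing does not measure. Of 9 AKT substrates, 5 were higher and 4 lower (median ratio 0.05). Foxo1 stood at 947 in the ID2 library and 1089 in the control library (−0.20), Foxo3 at 3652 in the ID2 library and 3658 in the control library (−0.0026), and Foxo4 at 2611 in the ID2 library and 2077 in the control library (0.33). Tbc1d1, of glucose transporter traffic, was lower (−0.46).

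Of 17 FOXO target genes, 13 were above the floor, 8 higher and 5 lower on whole steps, with a median ratio of 0.05. Insr and Irs2 belong to this list, since FOXO factors switch on receptor and adaptor genes when insulin is low in other cell types. Cited2, a transcriptional coregulator, stood at 1999 in the ID2 library and 739 in the control library (1.43), and Bcl6, a transcriptional repressor, at 314 in the ID2 library and 149 in the control library (1.07). Txnip, an inhibitor of glucose uptake, stood at 7242 in the ID2 library and 17350 in the control library (−1.26). The authors' deposited table gives an adjusted p of 0.00254 for Txnip and of 0.0138 for Cited2, each from 1 library per group. The adjusted p-values the authors give for Igfbp4, Igfals, Sgk3, Prr5l and Bcl6, also at least 2-fold apart, were above 0.05. Cited2 also has 1 exon. Igfbp1, Pck1, G6pc and Fbxo32, targets known from liver and muscle, were not listed.

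AMPK, which restrains mTOR complex 1 when energy is low, had 6 of 7 subunit and activator genes lower on whole steps (background 51.5%), with a median ratio of −0.06. Prkaa2, a catalytic subunit, stood at 792 in the ID2 library and 1109 in the control library (−0.48), Prkab2 at 600 in the ID2 library and 722 in the control library (−0.27), and Prkag1 at 393 in the ID2 library and 442 in the control library (−0.17). The others lay between −0.06 and 0.04, and none of the 7 was 1.5-fold apart. Over all 15 lists with each gene taken once, 121 genes were above the floor, 55 higher, 65 lower and 1 equal, with a median ratio of −0.0099. A 2-fold higher value was seen in 4 of them (3.31%) and a 2-fold lower value in 4 (3.31%), against 2.53% and 1.86% over the whole table. At 1.5-fold the shares were 8.26% higher and 4.96% lower, against 8.0% and 6.59% over the whole table. The shares of higher genes were thus near the background at both thresholds, while the 2-fold lower share was above it and the 1.5-fold lower share below it, on counts of 4 and 6 genes.

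**Figure D4:**
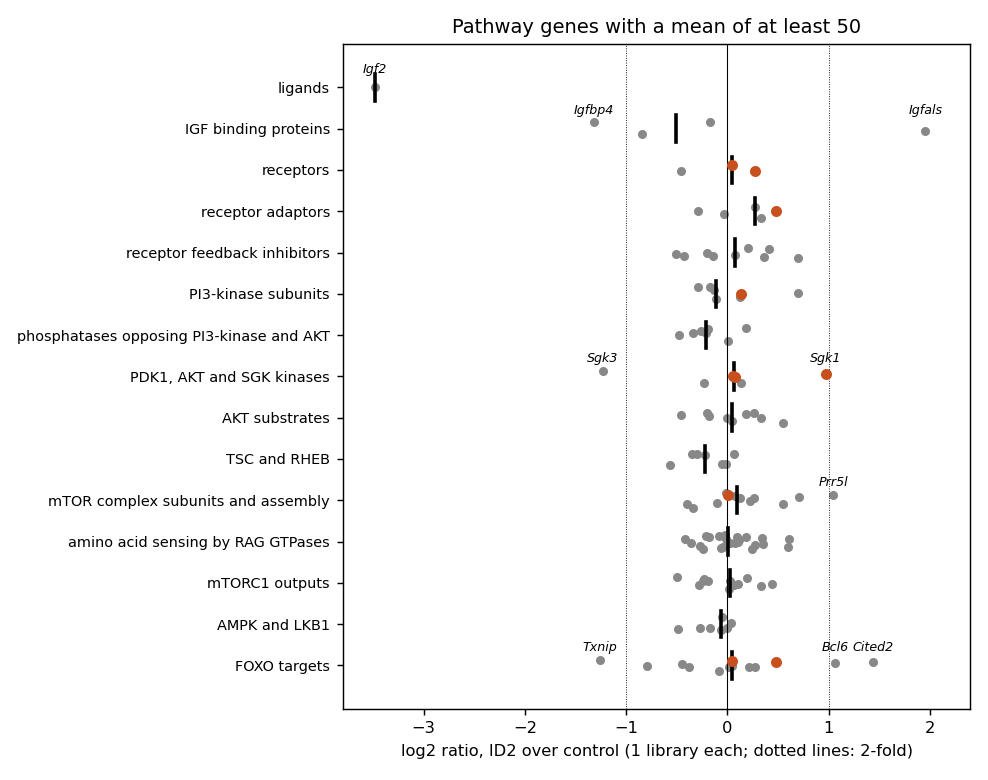
Log2 ratio of ID2 over control (horizontal axis) for genes of 15 pathway lists with a mean of at least 50, the members drawn in orange and the median of each list as a black bar. Most genes lie between the dotted 2-fold lines, and Igf2, Igfbp4, Igfals, Sgk3, Prr5l, Txnip, Bcl6 and Cited2 lie outside them.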

How the data were processed

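Per the labels' protocols, total RNA from a Trizol extraction went into TruSeq v2 libraries, a kit that keeps no strand. STAR, DESeq and build mm9 were used, per the submitters' processing notes; the read counting, annotation and versions were not given in the sources used here. Per gene and library the authors deposited a normalized signal value, the mean of both, a fold, its log2 and a p-value with its adjusted value. The deposited values were whole multiples of 1 step per library (within 0.01 of a step), and the sorted steps of both libraries were identical (0 ranks differed), so depth is unknown and no counting interval was computed.

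Ratios with a pseudocount of 1, a floor of 50 on the mean, counts and medians were computed with Python 3.11.15, numpy 2.4.6 and pandas 2.3.3, and tested on simulated data. Transcript length is that of the principal coding transcript in GENCODE vM21 (GRCm38), found for 127 of 127 listed genes in the table; another isoform would change values per kb. Promoters are from RefSeq (8 of 9 members matched); protein sequences were not used here. No test was run. Named genes were the members, 13 fixed genes (pathway components and Id2) and the 3 largest ratios of each list; other list genes are named where they are missing or under the floor, or belong to a member's family. Of the genes this rule names, 2 are not reported here. Members and lists were chosen with earlier results of these data known.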

Additional observations from a re-analysis of the deposited data

How the results depend on the processing

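Each ratio, percentile, median and count was recomputed under the alternatives that apply to it, 302 values in all, and 289 stayed within 0.1 for ratios and medians, 5 points for percentiles and 1.5 times for counts, while 13 moved and 0 turned direction past 2-fold. The Sgk1 ratio stayed between 0.96 and 0.97 under both scalings, pseudocounts of 0.1 and 10 and the authors' log2 column, and its percentile was 99.8 among 1000 neighbours. Several of these settings could hardly move a ratio, so this is no measure of stability. With a pseudocount of 10 the Igf2 ratio was −3.17. With no floor the median of IGF carrier genes was −0.85 and that of receptor feedback inhibitors −0.036, and 551 genes were 2-fold higher, 470 2-fold lower and 1286 1.5-fold lower. With a floor of 250 the IGF carrier median was −0.75, 105 genes were 2-fold higher and 53 lower, 478 were 1.5-fold higher and 339 lower, and of list genes 1 was 2-fold and 6 were 1.5-fold higher; fewer genes enter there. On whole steps the small median of the amino acid sensing genes was −0.0082 in place of 0.0058. The unknown depth and single libraries limit every value. No paired analysis was possible because each group has 1 library.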
